A study of Mus musculus with 2 samples.

Results

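Genomic imprinting leaves some mammalian genes active on the chromosome inherited from one parent only. A set of 41 mouse imprinted genes, chosen by name and leaving aside those of the insulin-like growth factor (IGF) axis, was followed here in embryonic stem (ES) cells without a working Eed gene by their label (Eed KO) and in their control. Probe sets, groups of short oligonucleotides read as 1 signal, were taken when the platform annotation gave them a single member symbol. This gave 99 probe sets for 38 of the 41 genes, out of 18193 genes with such a probe set. Rtl1, Slc22a3 and Zrsr1 had none. The groups were 1 array of Eed KO cells and 1 array of control cells. Both arrays were hybridised with biotin-labelled cRNA made from total RNA on the Affymetrix MOE430.2 platform. Strain, sex, passage, clone number, the way Eed was disrupted and the use of feeder cells are not given in the labels, and no allele or treatment shared by both lines is named. The labels also leave out whether both lines came from 1 parent line.

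Imprinted genes lie mostly in domains that share an imprinting control region, a stretch of DNA methylated on 1 parental copy in the germ line. The methylation, or a long noncoding RNA transcribed from the unmethylated copy, sets which allele of the nearby genes is active. Eed belongs to PRC2, which places the repressive H3K27 methylation mark, and in mouse embryos a few genes silent on the paternal copy are known to need Eed for that silence. Methylation at imprinted domains is also known to be unstable in cultured mouse ES cells. A microarray signal adds both alleles together, so it shows how much transcript was measured but not from which parental copy.

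Signals under 61.3, the 40th percentile of all signals other than the control probe sets, were raised to that floor, so a ratio against a floored signal is a lower bound. The probe set brightest on average over both arrays stands for its gene, which counts as measured when above the floor on at least 1 array. Both arrays had been scaled to a trimmed mean of 500. With 1 array per group there is no replicate and no test, and every difference below is between these 2 arrays. The only internal yardstick is the agreement of different probe sets for a gene. The log2 ratios of an imprinted gene's probe sets above the floor on both arrays spread with a pooled SD of 0.50 (35 degrees of freedom). Over all genes an SD was taken from the difference between a gene's 2 brightest probe sets. It was between 0.20 for bright and 0.46 for dim probe sets, and is not the same measure as the pooled SD. The Eed probe sets did not check the label, since the main one read 11455.8 in Eed KO and 10101.3 in control and the disrupted part of the gene is not known. Of 11 ES cell markers 1 was at least 2-fold higher (Klf4) and 1 lower (Dppa4), with a median log2 ratio of -0.04 and members on both sides of it, from -1.22 to 1.37. Of 23 measured fibroblast markers 16 were at least 2-fold higher in Eed KO (median log2 ratio 1.41), with Lum under the floor on both arrays and a summed signal of 80725.3 in Eed KO and 35945.8 in control. Of 13 measured trophoblast markers 7 were higher, with Cdx2, Tpbpa and Psg17 under the floor on both arrays, and the list summed to 18502.7 in Eed KO and 9673.9 in control. Of 15 measured primitive endoderm markers 7 were higher, with Ttr under the floor on both arrays. Their median log2 ratio was 0.94, with 12 ratios above 1 and 3 below it. The list summed to 22256.7 in Eed KO and 21924.7 in control, of which Apoe alone gave 8889.8 in Eed KO and 13040.3 in control. In bulk RNA, fewer cells of a type and less RNA per cell cannot be told apart.

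The imprinted genes did not move as 1 group. Of the 33 measured members 6 were at least 2-fold higher in Eed KO, 2 were at least 2-fold lower and 25 lay within 2-fold. The higher ones were Plagl1, Ndn, Slc22a18, Grb10, Sgce and Gatm, and the lower ones Mirg and Nnat. The 6 are 18.2% of the measured members, beside 10.8% of all 13794 measured genes, and the 2 are 6.06%, beside 3.27% of all. The members' median log2 ratio was 0.01, beside 0.12 for all measured genes. When both arrays are given an equal median signal, which moves the median ratio of all genes to -0.16, the split turns to 3 higher and 7 lower. All measured genes then split into 873 higher and 1034 lower, against 1483 and 451 as deposited. The members split 4 and 5 after quantile normalization (median of all genes 0.02) and also after scaling on the poly-A spikes (-0.06). Of all measured genes 7.77% were higher and 4.24% lower after quantile normalization, and 7.56% and 5.57% on the poly-A spikes. All 8 genes past 2-fold were above the floor on both arrays, so the floor fixed none of these calls. Among genes above it on both arrays the backgrounds were 9.89% higher and 3.39% lower, beside the same 6 and 2 of 27 members. Of the other measured members, 3 were above it in Eed KO only and 3 in control only.

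**Figure D1:**
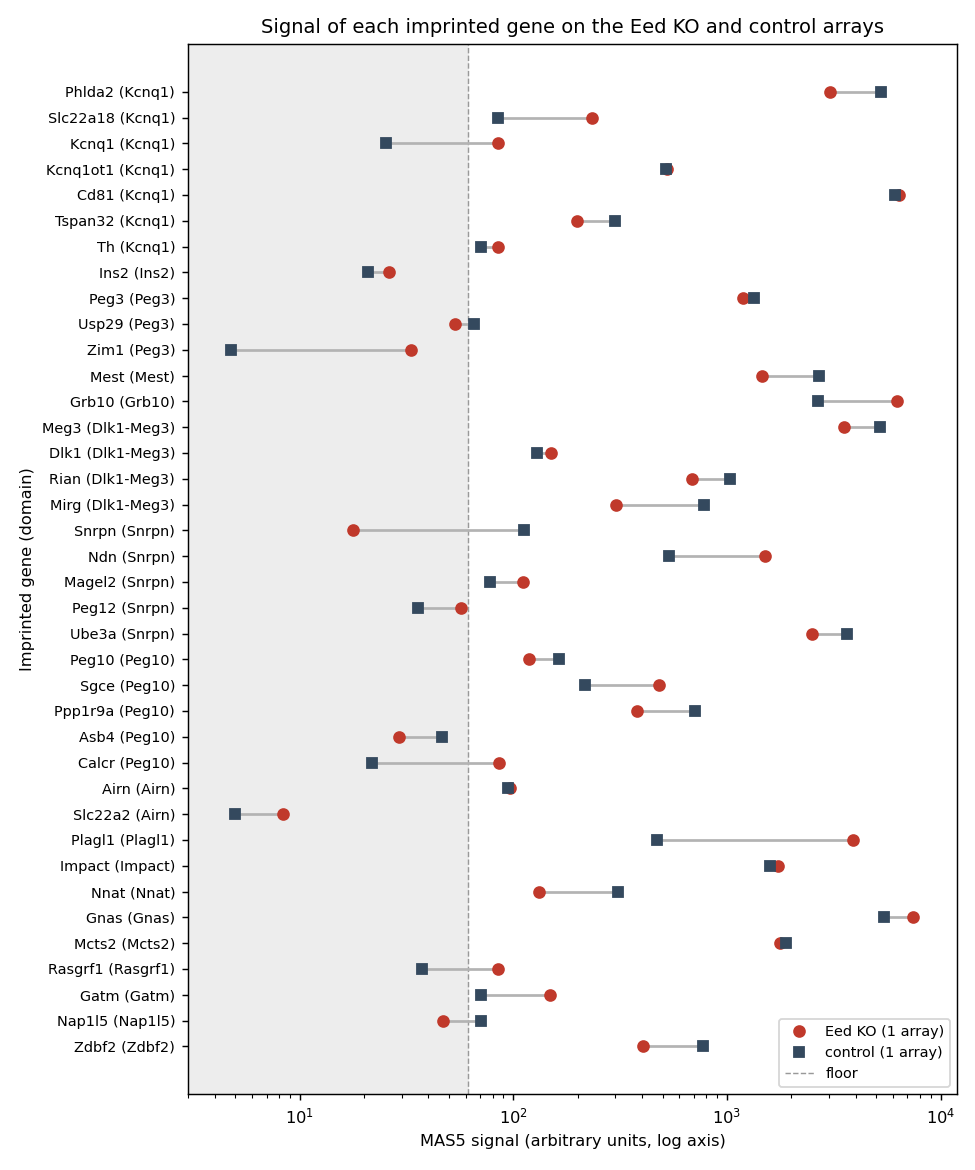
MAS5 signal of the 38 imprinted genes with a probe set, on a log axis, with the domain in brackets. Red circles are the Eed KO array and blue squares the control array, 1 array each, and the grey area lies under the floor of 61.3. Plagl1 shows the widest gap above the floor, at 3874.3 in Eed KO and 469.1 in control.

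Members of both parental classes lay on both sides. Among genes known to be expressed from the maternal copy, 3 of 14 measured ones passed 2-fold upwards and 1 downwards, with a median log2 ratio of -0.25. Of these 14, 7 are known to be imprinted broadly and not only in placenta, neurons or brain. Among the 7, 2 were higher and 1 lower, with 3 ratios above 1, 4 below it and a median of -0.57. The 4 include the neighbouring Meg3, Rian and Mirg of the Dlk1-Meg3 domain, so they are not 4 separate loci. The median is the ratio of Meg3 itself. Among genes expressed from the paternal copy, all of the broad kind, 3 of 18 were higher and 1 lower, with a median of -0.04. In each class as many genes had a ratio above 1 as below it, 7 and 7 for the maternal and 9 and 9 for the paternal class. The split was uneven over all 13794 measured genes, with 8126 above 1 and 5666 below it. Of all these genes 10.8% were at least 2-fold higher and 3.27% lower. Without the genes whose direction the floor fixed, 5 maternal genes were above and 7 below 1 (median -0.56), and 8 paternal genes were above and 6 below (median 0.01). The difference between the classes was not tested. Gnas, whose alternative promoters are imprinted in opposite ways, was kept out of both classes. Of the members known to be imprinted in placenta only, 5 were measured and 1, Gatm, was past 2-fold. Ins2, Zim1, Peg12, Asb4 and Slc22a2 were under the floor on both arrays, between 8.4 and 57.1 in Eed KO and between 4.8 and 46.6 in control, and their ratios carry no information.

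**Figure D2:**
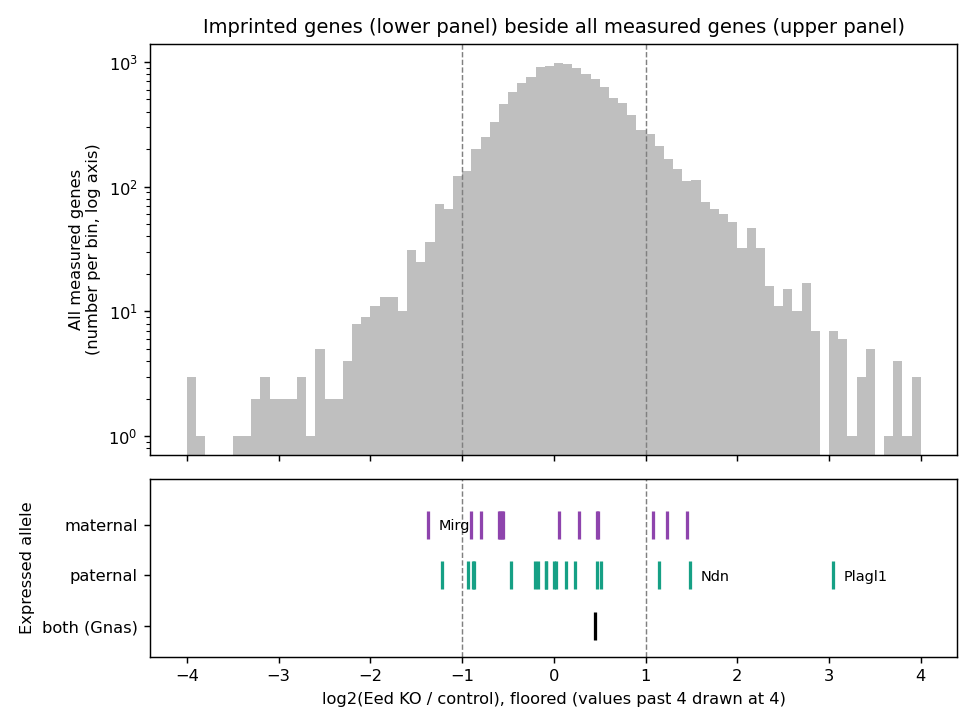
Distribution of floored log2 ratios, Eed KO over control, of all 13794 measured genes (upper panel, number of genes on a log axis) and of the 33 measured imprinted genes by the allele they are known to be expressed from (lower panel, 1 tick per gene). Dashed lines mark 2-fold. Ticks of both classes spread over both sides of 0, and Plagl1 stands alone at 3.05.

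Of the 3 maternally expressed noncoding RNAs of the Dlk1-Meg3 domain on chromosome 12, Mirg was at least 2-fold lower in Eed KO, while the main signals of Meg3 and Rian were lower but within 2-fold. Meg3 is a long noncoding RNA transcribed from the maternal copy, Rian carries small nucleolar RNAs and Mirg carries many microRNAs. In the RefSeq annotation of GRCm38.p6, 10 microRNA hairpins lie within Mirg and 3 within Rian on the same strand. The 300-base windows at their annotated starts are shown because the 3 transcripts, known as parts of what may be 1 long transcription unit, differ in sequence at these starts. Each runs 5′ to 3′ from 250 bases before to 50 bases after the start. Capitals mark the letters TGCCGC or their reverse complement GCGGCA, the hexamer that the imprint-keeping zinc finger protein ZFP57 is known to bind when methylated. Meg3 has a second listed start, whose window holds 0 matches and 1 CpG and is not shown. The first Meg3 window holds 1 match and 13 CpG dinucleotides, that of Mirg 0 matches and 10 CpG, and that of Rian 0 of either.
Meg3, chr12:109540746-109541045, plus strand: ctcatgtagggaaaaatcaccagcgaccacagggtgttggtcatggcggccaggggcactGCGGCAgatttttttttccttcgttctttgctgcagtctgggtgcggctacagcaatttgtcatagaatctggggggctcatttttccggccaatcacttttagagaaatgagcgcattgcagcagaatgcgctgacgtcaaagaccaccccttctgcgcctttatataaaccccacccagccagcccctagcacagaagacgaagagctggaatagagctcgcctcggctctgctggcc
Rian, chr12:109603695-109603994, plus strand: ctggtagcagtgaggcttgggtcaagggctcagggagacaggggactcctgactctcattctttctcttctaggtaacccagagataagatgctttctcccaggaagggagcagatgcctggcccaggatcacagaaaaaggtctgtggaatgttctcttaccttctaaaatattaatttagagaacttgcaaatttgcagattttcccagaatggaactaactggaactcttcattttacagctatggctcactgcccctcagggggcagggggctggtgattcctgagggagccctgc
Mirg, chr12:109734731-109735030, plus strand: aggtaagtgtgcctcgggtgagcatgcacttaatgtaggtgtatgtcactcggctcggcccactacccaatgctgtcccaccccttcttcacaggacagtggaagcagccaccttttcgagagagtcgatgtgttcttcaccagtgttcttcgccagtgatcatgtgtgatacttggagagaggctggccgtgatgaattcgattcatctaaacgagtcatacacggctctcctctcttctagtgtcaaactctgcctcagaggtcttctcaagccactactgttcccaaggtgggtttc

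Mirg read 302.2 in Eed KO and 782.8 in control with its main probe set, a 2.59-fold lower signal, and 183.9 in Eed KO and 630.5 in control with its other one (3.43-fold). Rian read 686.3 in Eed KO and 1037 in control with its main probe set (log2 ratio -0.60), and the 3 further ones were lower by more, with log2 ratios of -1.02, -1.20 and -1.83. The main probe set of Rian therefore understates what the others read, and the gene passed 2-fold as the mean over its probe sets (-1.16). Meg3 had 11 probe sets. Its main one read 3519.6 in Eed KO and 5213.8 in control, a log2 ratio of -0.57, close to the pooled SD between probe sets. That probe set is of a kind that can also bind other transcripts, and with such probe sets left out the log2 ratio was -0.87. Among the 5 Meg3 probe sets with a control signal above 1000, a split chosen after the values were seen, the log2 ratio lay between -1.11 and -0.57. The 5 dimmer ones above the floor on both arrays ran from -0.91 to 0.35, and 1 more was at 25 in Eed KO, under the floor, and at 334.8 in control. Over the 3 genes, 14 of 17 measured probe sets had a lower signal in Eed KO, 7 of them by at least 2-fold, and 0 were at least 2-fold higher. Of the 17, 11 belong to Meg3, and all read the same 2 arrays, so they are not replicates. Among all 13794 measured genes, with 1 probe set each, 5666 had a ratio below 1 and 3.27% were at least 2-fold lower.

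Dlk1, a membrane protein related to Notch ligands and expressed from the paternal copy of the same domain, did not share this difference. It read 150.3 in Eed KO and 128.5 in control (log2 ratio 0.23, and -0.08 at equal array medians), with a probe set that can also bind other transcripts. The 3 nearest measured genes on each side of the domain had log2 ratios between -0.52 and 0.44, and 0 of the 6 reached 2-fold. Mirg stayed past 2-fold in 10 of 10 alternative settings of scaling, floor and probe set choice (log2 ratio -1.68 to -1.22), and the Meg3 and Rian ratios stayed below 1 in all 10, although Meg3 reached 2-fold in none of them.

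The Snrpn domain on chromosome 7 held members that differed in opposite directions. This is the domain whose human counterpart is known for the Prader-Willi and Angelman syndromes. Its genes Snrpn, Ndn, Magel2 and Peg12 are expressed from the paternal copy, and Ube3a, a ubiquitin ligase, from the maternal copy in neurons. Ndn, which encodes the MAGE family protein necdin, a growth suppressor, read 1500.3 in Eed KO and 538.2 in control (2.79-fold higher). For 5 of its 6 measured probe sets the log2 ratio lay between 1.23 and 1.55, and the remaining one was under the floor in Eed KO (6.6) and just above it in control (62.0). Ndn was past 2-fold in 10 of 10 alternative settings. Magel2, a related MAGE gene next to it, read 110.9 in Eed KO and 77.9 in control (log2 ratio 0.51), both near the floor.

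Snrpn, which encodes a spliceosomal Sm protein, was lower. Its only probe set with a single symbol read 17.7 in Eed KO, under the floor, and 111.8 in control, at least 1.82-fold lower. A further 6 probe sets are annotated to both Snurf and Snrpn, 2 reading frames of the same messenger RNA, and are no members by the rule. Of the 5 that were above the floor on both arrays, the 4 brighter ones read 4621.5, 4290.7, 2618.1 and 2209.9 in Eed KO, against 9840.1, 8515.3, 8249.8 and 6552.8 in control. All 4 were lower, by log2 ratios of -1.09, -0.99, -1.66 and -1.57, and the dim one read 76.3 in Eed KO and 71.1 in control. Snhg14, the long noncoding host of small nucleolar RNAs that is known to start near Snrpn on the paternal copy and to run antisense into Ube3a in neurons, lies inside the domain and was named after its value was seen. It read 653.5 in Eed KO and 1905.3 in control (2.92-fold lower), and its second bright probe set 398.2 in Eed KO and 1263.8 in control (3.17-fold). Ube3a itself was lower by less. Its main probe set read 2504.7 in Eed KO and 3668.7 in control, and all 6 had log2 ratios from -0.55 to -0.01. Mkrn3, another imprinted gene inside the domain, read 176.6 in Eed KO and 184.4 in control (log2 ratio -0.06). The Snrpn and Snhg14 transcripts were thus lower, Ndn higher and Mkrn3 near 1:1 within 1 domain.

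**Figure D3:**
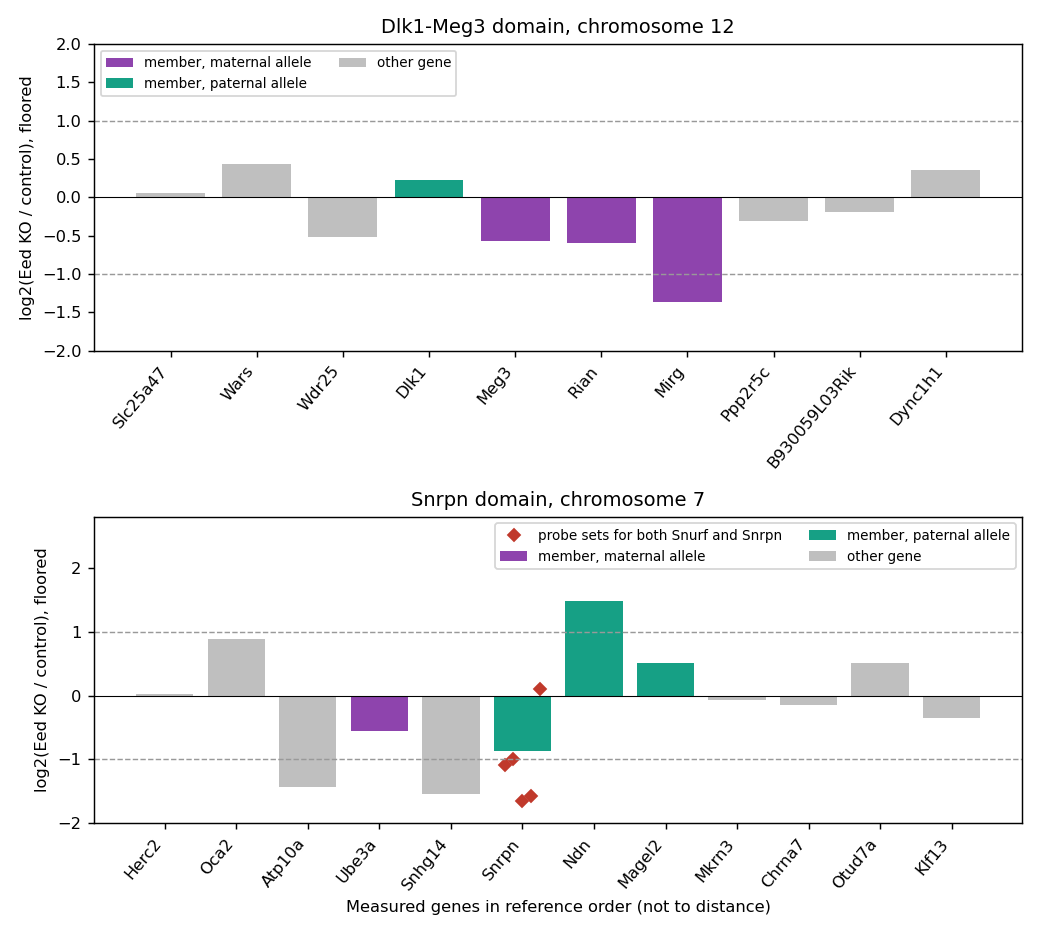
Floored log2 ratio, Eed KO over control, of the measured genes of 2 imprinted domains and of the 3 nearest measured genes on each side, in the order of the reference annotation. Purple bars are members expressed from the maternal copy, green bars members expressed from the paternal copy, grey bars other genes, and red diamonds single probe sets annotated to both Snurf and Snrpn. Meg3, Rian and Mirg point down beside Dlk1, and Atp10a, Ube3a, Snhg14 and Snrpn point down beside Ndn at 1.48.

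Of the 3 nearest measured genes on each side of the Snrpn domain, 1 was past 2-fold. This was Atp10a, a phospholipid transporter gene next to Ube3a and itself on the list of other imprinted genes, at 76.7 in Eed KO and 206.6 in control (2.69-fold lower). All 3 of its measured probe sets were lower, with log2 ratios of -1.69 to -1.33, and it stayed past 2-fold in 8 of 10 settings.

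Plagl1 and Grb10, both regulators of growth, were higher in Eed KO. Plagl1 encodes a zinc finger transcription factor that is known to arrest the cell cycle and to regulate other imprinted genes, and it is expressed from the paternal copy. Grb10 encodes an adaptor that binds the insulin and IGF receptors and is expressed from the maternal copy in most tissues. Their first listed start windows are shown in the same way as above. Both hold 1 match to the hexamer, and they are rich in CpG, with 26 in Plagl1 and 45 in Grb10. The median was 7 over all 32851 windows and 13 over the members' windows. Grb10 has a second listed start, whose window holds 0 matches and 9 CpG and is not shown.
Plagl1, chr10:13090582-13090881, plus strand: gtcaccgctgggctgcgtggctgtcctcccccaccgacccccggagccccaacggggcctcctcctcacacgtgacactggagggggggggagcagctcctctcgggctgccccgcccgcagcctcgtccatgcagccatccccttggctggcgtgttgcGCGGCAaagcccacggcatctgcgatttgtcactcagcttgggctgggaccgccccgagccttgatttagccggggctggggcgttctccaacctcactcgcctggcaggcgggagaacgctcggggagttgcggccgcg
Grb10, chr11:12037371-12037670, minus strand: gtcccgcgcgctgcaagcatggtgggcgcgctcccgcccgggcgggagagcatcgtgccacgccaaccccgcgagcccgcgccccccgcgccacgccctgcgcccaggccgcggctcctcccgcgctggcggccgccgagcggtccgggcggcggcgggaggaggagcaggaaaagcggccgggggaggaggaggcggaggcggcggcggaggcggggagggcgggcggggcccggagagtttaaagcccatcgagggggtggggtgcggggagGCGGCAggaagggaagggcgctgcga

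The main Plagl1 probe set read 3874.3 in Eed KO and 469.1 in control, an 8.26-fold higher signal that ranked 28 among the 13794 measured genes. That probe set is of the kind that can also bind other transcripts. The other Plagl1 probe sets read 120.4 in Eed KO and 6 in control (at least 1.96-fold higher) and 107.9 in Eed KO and 77.5 in control (1.39-fold). All 3 were higher in Eed KO, but the size rests on 1 of them, since the log2 ratio of 3.05 was 0.48 with probe sets ending in _x_at or _s_at left out. Grb10 read 6254.3 in Eed KO and 2666.1 in control (2.35-fold higher). Its 3 probe sets agreed closely, with log2 ratios of 1.16, 1.23 and 1.28 (SD 0.06, n = 3 probe sets), and it stayed past 2-fold in 9 of 10 settings, with 0.92 at equal array medians. Next to Plagl1 2 of 6 flanking genes were past 2-fold, in opposite directions. Phactr2, on the list of other imprinted genes, read 149.9 in Eed KO and 66.9 in control (2.24-fold higher, kept in 3 of 9 settings), and Utrn read 1027.6 in Eed KO and 2136 in control (2.08-fold lower). Next to Grb10 0 of 6 were past 2-fold. A locus of unknown function annotated inside Grb10 (LOC102631979), named after its value was seen, read 143.8 in Eed KO and 60 in control, where it was under the floor.

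**Figure D4:**
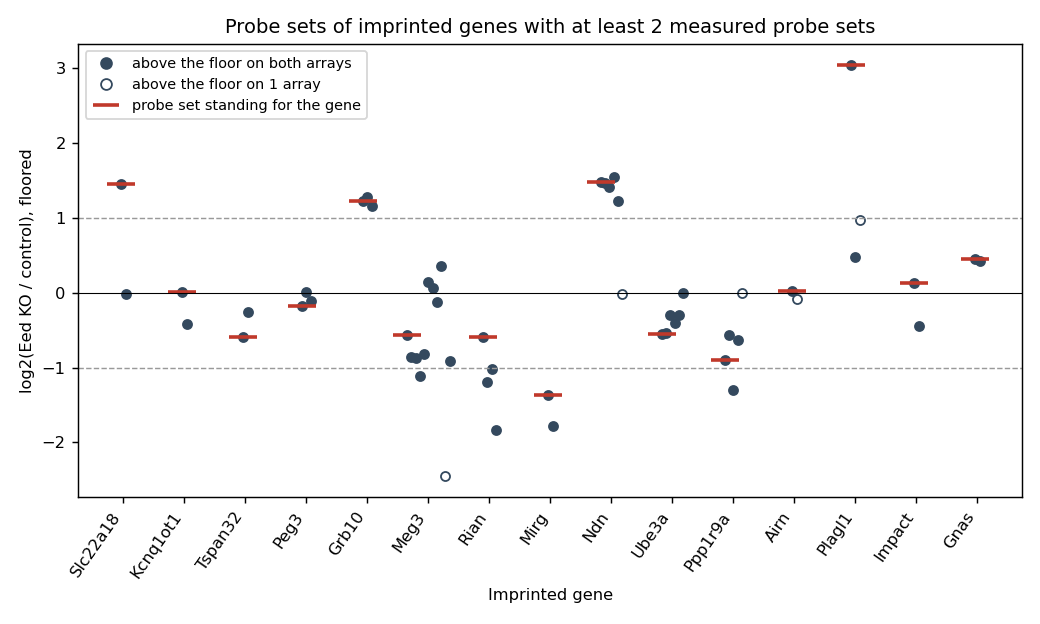
Floored log2 ratio, Eed KO over control, of each measured probe set of the 15 imprinted genes that have at least 2. Filled points were above the floor on both arrays and open points on 1, red bars mark the probe set that stands for the gene, and dashed lines mark 2-fold. Grb10 and Mirg probe sets lie together, while those of Plagl1 run from 0.48 to 3.05.

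Of the 7 measured members of the Kcnq1 domain on chromosome 7, 6 lay within 2-fold. Kcnq1ot1, the paternally expressed noncoding RNA whose transcription silences its neighbours on the same chromosome, read 522.2 in Eed KO and 520.3 in control, and its second measured probe set read 331.9 in Eed KO and 445 in control. Phlda2, a maternally expressed brake on placental growth, read 3028.8 in Eed KO and 5268.1 in control (1.74-fold lower, and past 2-fold in 1 of 10 settings). Cd81, a tetraspanin, read 6362.2 in Eed KO and 6112.5 in control. These 3 genes stayed within 2-fold as deposited.

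Slc22a18, a transporter of the same domain, was the exception, at 233.5 in Eed KO and 85.1 in control (2.74-fold higher). Its second probe set did not share the difference, at 89.2 in Eed KO and 90.4 in control, and the mean over both was a log2 ratio of 0.72. Its main log2 ratio of 1.46 shrank to 0.47 under the higher floor tried. Tspan32, a tetraspanin of blood cells, had a log2 ratio of -0.59. Th, tyrosine hydroxylase, read 84.9 in Eed KO and 70.4 in control. The potassium channel gene Kcnq1 was at 85 in Eed KO and under the floor, at 25.4, in control, so its ratio of at least 1.39-fold had its direction fixed by the floor. Of 6 flanking genes 2 were past 2-fold, Cars (3391.6 in Eed KO and 1327.9 in control) and Igf2, the fetal growth factor (2760.2 in Eed KO and 627.5 in control, 4.40-fold higher).

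In the Peg10 domain on chromosome 6, Sgce and Peg10 start next to each other and are both expressed from the paternal copy, yet they did not differ alike. Sgce, which encodes epsilon-sarcoglycan, read 481.2 in Eed KO and 217.4 in control (2.21-fold higher, and under 2-fold in 5 of 10 settings). Peg10, a retrotransposon-derived gene needed for the placenta, read 118.8 in Eed KO and 164.3 in control (log2 ratio -0.47). Ppp1r9a, which encodes the actin-binding protein neurabin, was lower with all 5 measured probe sets, the main one at 378.4 in Eed KO and 707.2 in control (1.87-fold), 3 more at log2 ratios of -1.29 to -0.57, and the last near the floor (35.2 in Eed KO and 61.4 in control). Calcr, the calcitonin receptor gene, was above the floor in Eed KO only (85.7, and 21.9 in control).

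A count of 7 further measured genes inside this domain was made after their values were seen. Of these, 5 were at least 2-fold higher, beside 10.8% of all measured genes. They were Gng11, a G protein subunit gene (657.2 in Eed KO and 271.8 in control), the collagen gene Col1a2 (1781.5 in Eed KO and 663.4 in control), and Tfpi2, Pon2 and Pon3, which are on the list of other imprinted genes. Tfpi2, a protease inhibitor gene, read 439.7 in Eed KO and 218.7 in control, Pon2 294.7 in Eed KO and 132.9 in control, and Pon3 240.8 in Eed KO and 67.2 in control. Pon3 stayed past 2-fold in 9 of 10 settings, Tfpi2 in 4 and Pon2 in 2. Col1a2 is on the fibroblast list, of which 16 of 23 measured genes were at least 2-fold higher. The part of other cell types in the higher signals of Sgce, Ndn, Grb10, Plagl1, Slc22a18 and Gatm was not tested.

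The remaining domains hold 1 to 3 members each. Nnat, a small membrane protein of the endoplasmic reticulum, read 132.3 in Eed KO and 308.5 in control (2.33-fold lower, and under 2-fold in 2 of 10 settings). It lies in an intron of Blcap, which read 702.2 in Eed KO and 487.3 in control (log2 ratio 0.53). Mest, an enzyme-like protein tied to embryonic growth, read 1465.6 in Eed KO and 2696.7 in control (log2 ratio -0.88), while Copg2, which overlaps its end on the other strand, read 1356.6 in Eed KO and 729.3 in control (0.90). In both pairs the paternally expressed gene was lower and its partner higher, in each case within 2-fold apart from Nnat.

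Zdbf2, a zinc finger gene linked to body growth in mice, was lower at 403.1 in Eed KO and 771.8 in control (log2 ratio -0.94, past 2-fold in 5 of 10 settings). Peg3, a zinc finger gene that affects growth and maternal care in mice, differed little with any of its 3 measured probe sets, the main one at 1184.1 in Eed KO and 1338.2 in control. Usp29, which shares its start region, was at 53.3 in Eed KO, under the floor, and 65.2 in control. The retrogene Mcts2 read 1780.6 in Eed KO and 1896.9 in control, and its host gene H13 had a log2 ratio of 0.36. Commd1, host of the retrogene Zrsr1, read 2892.9 in Eed KO and 2489.7 in control. Peg3 and Mcts2 thus stayed near 1:1, while the 5 measured H13 probe sets ran from log2 ratios of -0.41 to 0.54.

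Impact, a regulator of the translational stress kinase Gcn2, read 1734.5 in Eed KO and 1583.8 in control, but its second measured probe set went the other way, at 188.2 in Eed KO and 255.4 in control. Gnas, which encodes the stimulatory G protein alpha subunit, read 7446.7 in Eed KO and 5453.5 in control (1.37-fold), and its other measured probe set had the same direction (log2 ratio 0.43). Gatm, an enzyme of creatine synthesis, read 149 in Eed KO and 70.4 in control (2.12-fold higher). Gatm passed 2-fold in 4 of 9 settings, and its control signal lay near the floor.

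Rasgrf1, an exchange factor for Ras, was above the floor in Eed KO only (85.1, and 37.5 in control). Nap1l5, a retrogene of a nucleosome assembly protein, was above it in control only (47.1 in Eed KO and 70.9 in control), and its host Herc3 read 234.3 in Eed KO and 189.1 in control. Airn, the noncoding RNA that silences Igf2r on the paternal copy, read 96.3 in Eed KO and 94.7 in control, both near the floor. Only 2 of its 5 probe sets were measured, and the second was at 41.6 in Eed KO, under the floor, and 65.3 in control. These dim signals say little about the level of Airn. Igf2r, the receptor that clears IGF2, read 1616.8 in Eed KO and 502.6 in control (3.22-fold higher). Neither the main Airn nor the main Kcnq1ot1 signal differed beyond the spread between probe sets. Around these smaller domains and next to Peg10, the flanking genes past 2-fold were Gm20559, Ttc39c, Tmed3, Ctsh, AA467197 and Vopp1 (2.21- to 3.86-fold higher), Duox1 and Ccser1 (at least 2.03- and 3.23-fold higher, under the floor in control) and Spata5l1 (at least 2.28-fold lower, under the floor in Eed KO). Over all domains 111 genes flanked the members, of which 9.91% were at least 2-fold higher and 2.70% lower, near the 10.8% and 3.27% of all measured genes. Of the 23 other measured genes inside the domains, 8 were higher (34.8%) and 1 lower (4.35%), and 5 of the 8 lie in the Peg10 domain.

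Other imprinted genes were counted beside these. Of 38 with a probe set 36 were measured, 10 at least 2-fold higher and 1 lower, with a median log2 ratio of 0.41, beside 10.8%, 3.27% and 0.12 for all measured genes. At equal array medians the split was 5 and 4 (median 0.10), beside 6.35% and 7.53% of all genes (median -0.16). The higher ones include Igf2 and Igf2r, described above. Cdkn1c, a cell cycle inhibitor of the Kcnq1 domain, read 981.2 in Eed KO and 720.4 in control (1.36-fold). Pon3, Tnfrsf23, Ampd3, Phactr2, Pon2 and Tfpi2 were 2.01- to 3.58-fold higher, and Qpct and Zim3, which were under the floor in control, at least 3.76- and 2.07-fold. Zim3 kept 2-fold in 4 of 9 settings, and Pon2, Phactr2 and Tfpi2 lost it in most, as given above. The lower one was Atp10a. Of the 4 genes known to lose paternal silencing in mouse embryos without Eed, Grb10 was higher as above, Cdkn1c and Meg3 lay within 2-fold and Ascl2 had a log2 ratio of -0.88. The 3 measured Ascl2 probe sets ran from -0.88 to -0.29, and its ratio was -0.29 with probe sets ending in _x_at or _s_at left out.

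Genes that set and keep imprints include some with lower signals in Eed KO. Of 19 measured regulators 0 passed 2-fold upwards and 4 downwards, and 15 had a ratio below 1, with a median log2 ratio of -0.44 (-0.75 to -0.41 over the other settings). Among all 13794 measured genes 3.27% were at least 2-fold lower, 5666 had a ratio below 1 and the median was 0.12. The 4 were the de novo DNA methyltransferases Dnmt3a (271.6 in Eed KO and 3052.3 in control) and Dnmt3b (4984.3 in Eed KO and 10848.9 in control), the H3K9 methyltransferase gene Ehmt2 (2062.2 in Eed KO and 4568.3 in control) and Mbd3 (1131 in Eed KO and 2322.8 in control). The 5 Dnmt3a probe sets were all lower but unequal, with log2 ratios of -3.49 to -0.49. Dnmt3a and Ehmt2 were past 2-fold in 10 of 10 settings, and Dnmt3b and Mbd3 in 8. Dnmt3l, the cofactor for imprint setting in germ cells, read 10477.9 in Eed KO and 9458.8 in control. Zfp57, which protects imprints after fertilisation, read 573.4 in Eed KO and 815.5 in control (log2 ratio -0.51), its corepressor Trim28 18044.7 in Eed KO and 20140 in control, and the maintenance pair Dnmt1 and Uhrf1 had log2 ratios of -0.44 and -0.67. DNA methylation was not measured.

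Start windows in RefSeq matched 35 of the 41 genes, with 49 windows, some of which overlap, such as those of Peg3 and Usp29 on opposite strands (263 shared bases). The hexamer TGCCGC, on either strand, was present in 13 of the 49 (26.5%), from 12 genes, and in 11.6% of all 32851 windows of the same length. The median number of CpG was 13 in the members' windows and 7 in all. The 12 genes with a match include Plagl1 and Grb10, which were higher in Eed KO, Nnat, which was lower, and Mcts2, which was near 1:1. These are counts of letters and not of bound sites.

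**Figure D5:**
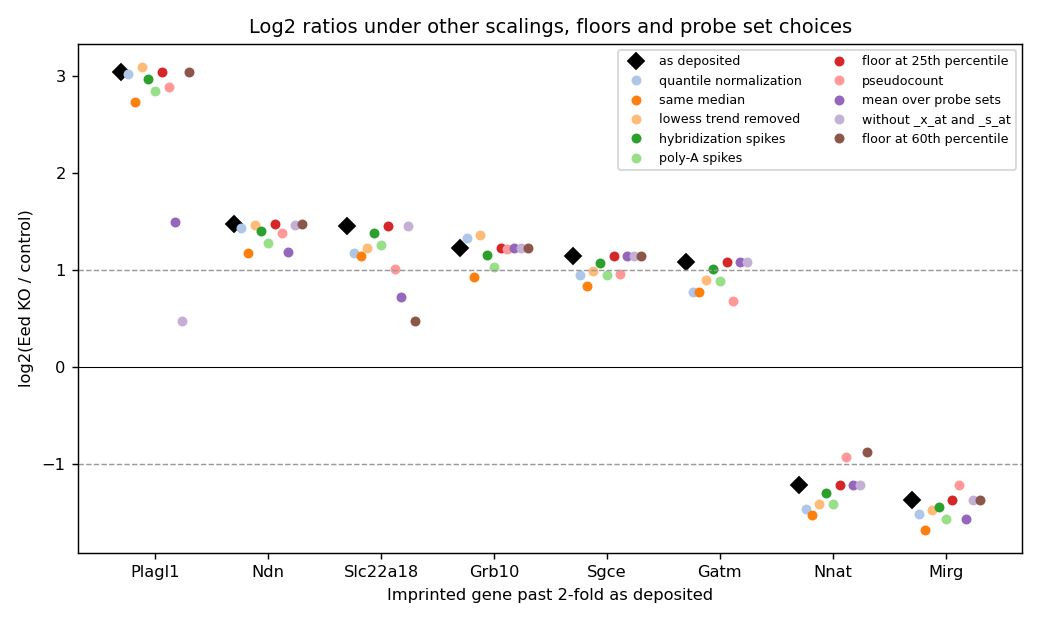
Log2 ratio, Eed KO over control, of the 8 imprinted genes past 2-fold, as deposited (black diamonds) and under 10 other scalings, floors and probe set choices (coloured points). Dashed lines mark 2-fold. Ndn and Mirg stay outside them throughout, Grb10 drops to 0.92 in 1 setting, and Plagl1 and Slc22a18 depend on the probe set.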

How the data were processed

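Total RNA of mouse ES cells was profiled on 2 Affymetrix arrays, 1 Eed KO and 1 control, grouped by sample title. Per the submitters' processing notes the signals came from MAS5 (version not given in the sources used here). The deposited values are linear probe set intensities, 1 per array for 45101 probe sets, without detection calls, and the values show that the authors scaled them, since the mean without the lowest and highest 2% is 500.00 on both.

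With Python 3.11.15 and pandas 2.3.3, signals were floored at 61.3 and log2 ratios taken, 1 probe set per gene. The platform annotation gave 34945 probe sets 1 symbol, 932 several and 9160 none. Sequences and chromosomes come from RefSeq, GRCm38.p6. No test was possible, so a call means at least 2-fold. The code was tested on simulated data. The members and gene lists were chosen with earlier results of these data known. All members were named, with overlapping partner genes, regulators, and other imprinted or flanking genes past 2-fold. Marker lists for ES, fibroblast, trophoblast, primitive endoderm and neural cells (1 of 10 measured neural markers higher, 2 lower, summing to 8865.1 in Eed KO and 8428 in control) were counted. Alternatives were 5 scalings, 2 floors, a pseudocount, 2 probe set rules, 2 call sizes and, added after seeing the data, a count of the Snurf and Snrpn probe sets for Snrpn. Precision is limited by the number of arrays.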

Additional observations from a re-analysis of the deposited data

How the results depend on the processing

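No paired analysis was possible because each group has 1 array. The count of imprinted genes at least 2-fold higher, 6 as deposited, was 3 at equal array medians and 1 at a 3-fold call, and between 4 and 9 otherwise. The count at least 2-fold lower, 2 as deposited, was 5 after quantile normalization, 7 at equal medians and 5 with poly-A spike scaling. It was 1 at a floor on the 60th percentile, 9 at a 1.5-fold call, 0 at a 3-fold call and 2 or 3 otherwise. At a 1.5-fold call 6 of 33 members were higher and 9 lower, beside 23.3% and 10.2% of all measured genes. Of all genes 3.53% were higher and 0.74% lower at a 3-fold call. The shares were 7.82% and 3.24% at the floor on the 60th percentile, where 21 members were measured. They were 7.77% and 4.24% after quantile normalization, 7.56% and 5.57% with poly-A spike scaling, and 6.35% and 7.53% at equal medians. The median log2 ratio of 0.01 was -0.13 after quantile normalization, -0.28 at equal medians, -0.0898 with the lowess trend removed, -0.19 with poly-A spike scaling and -0.18 at a floor on the 60th percentile. Averaging a gene's probe sets gave -0.0913. Each of these medians stayed below that of all genes in the same setting, by 0.12 to 0.24. Counting the Snurf and Snrpn probe sets for Snrpn, an alternative chosen after seeing the data, gave 6 higher and 3 lower. No gene past 2-fold changed sign, and 27 of 33 measured members kept their sign in every setting that measured them. Smaller call sizes and floors call more genes by construction, and for the scalings the cause was not tested.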
